A study of Mus musculus with 24 samples.

Results

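The genes described here set how a cell senses corticosteroids. They are the receptor genes Nr3c1 and Nr3c2, the steroid enzyme genes Hsd11b1 and H6pd, the chaperone genes Fkbp4 and Ptges3, and the coregulator genes Ncoa1, Ncoa2 and Ncor1. They were picked by gene symbol, and all 9 were found among the 56748 genes of the deposited count table. All 9 also passed the filter on low counts in myotubes (15763 genes kept), in fibroblasts (16671 genes kept) and in both cell types together (17864 genes kept).

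Primary cells of mouse hindlimb muscle were sequenced as bulk RNA, in 8 groups of 3 libraries. Both genotypes came from pups under 5 days old: mdx mice (C57BL/10-Dmdmdx), whose dystrophin gene Dmd is mutated, and C57 mice (C57BL/10). Myotubes, the fused and contractile cells that muscle progenitors form, received 1 µM aldosterone for 48 h in mdx and in C57 cultures, against DMSO vehicle at 0.001% for the same time. Fibroblasts, the matrix-making cells of muscle, received for 24 h the medium that such myotubes of their own genotype had conditioned, from aldosterone-treated or from vehicle-treated cultures. All groups were kept in charcoal-stripped horse serum, which is low in steroids, during treatment. Myotubes were given fresh medium after the hormone, and were lysed after a further 15 h, once that medium had been collected. The genotype of a fibroblast and that of its medium therefore cannot be told apart, and neither can the mdx mutation and other differences between the mice. Aldosterone reaches fibroblasts here only through the medium, and its level there was not analysed here. Nothing in the labels says that numbered biological replicates came from separate animals, so p-values measure only the spread between these samples. In such bulk samples, fewer cells of a type and less RNA per cell cannot be told apart.

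Glucocorticoids and mineralocorticoids act through a pair of closely related nuclear receptors. The glucocorticoid receptor, encoded by Nr3c1, is present in most cells. The mineralocorticoid receptor, encoded by Nr3c2, binds aldosterone and, with similar affinity, the glucocorticoids cortisol and corticosterone. Which steroid reaches a receptor depends on enzymes that convert glucocorticoids inside the cell. Heat shock chaperones hold the unbound receptors ready for hormone, and coactivators and corepressors then set the response of target genes.

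Total counts per library ran between 14133165 and 31144746 in myotubes and between 16964960 and 42698139 in fibroblasts. The 8 skeletal muscle marker genes summed to between 23780 and 40610 CPM in myotubes and between 15.4 and 155.9 CPM in fibroblasts, and the 8 fibroblast markers to between 303.6 and 3318 CPM in myotubes and between 11810 and 20280 CPM in fibroblasts. CPM here was computed on library totals scaled by TMM. Dmd was lower in mdx than in C57 cells under vehicle, by 3.16 on the log2 scale in myotubes (a change of -3.16 ± 0.21 SE, edgeR adjusted p = 5.80e-05) and by 1.48 in fibroblasts (-1.48 ± 0.16 SE, edgeR adjusted p = 0.000342). Markers of macrophages, another cell type of muscle, varied between myotube cultures. The 10 macrophage and leukocyte markers summed to 223.9 to 502.3 CPM in C57 cultures 2 and 3 and to 12.06 and 13.35 CPM in C57 culture 1. In mdx culture 2 they summed to 205.9 CPM under aldosterone and 43.17 CPM under vehicle, and in the other mdx myotube libraries to between 3.795 and 16.27 CPM.

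Per unit of transcript length, the glucocorticoid receptor gene far outweighed the mineralocorticoid receptor gene in both cell types. FPKM, the deposited value that divides counts by gene length and library total, allows levels of different genes to be compared. Nr3c1 had a median of 10.98 FPKM in myotubes (range 8.727 to 14.67) and 16.78 FPKM in fibroblasts (range 14.6 to 19.04). Nr3c2 had a median of 0.571 FPKM in myotubes (range 0.3548 to 0.9545) and 0.3799 FPKM in fibroblasts (range 0.2417 to 0.5714). Each group of levels was from 12 libraries. The chaperone gene Ptges3 was the highest of the 9 in both cell types, with medians of 59.51 FPKM in myotubes and 43.05 FPKM in fibroblasts, and Fkbp4 followed with 45.09 FPKM in myotubes and 33.13 FPKM in fibroblasts. The lowest gene differed between the cell types. It was Nr3c2 in myotubes and Hsd11b1 in fibroblasts, where Hsd11b1 had a median of 0.166 FPKM against 2.112 FPKM in myotubes.

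**Figure D1:**
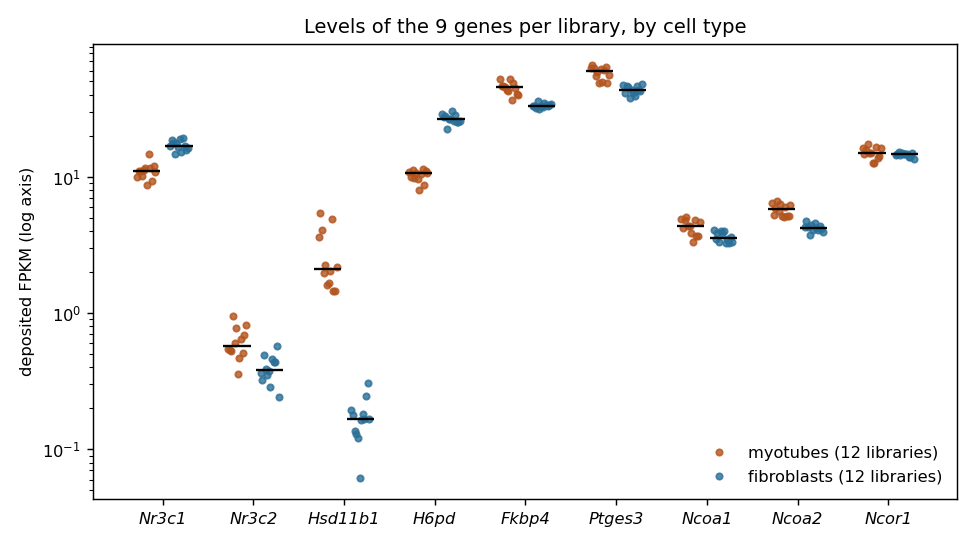
Deposited FPKM (log axis) of the 9 genes in each of 12 myotube libraries and 12 fibroblast libraries, with each library as a point and the median as a bar. Hsd11b1 separates the cell types most widely, from 1.444 to 5.366 FPKM in myotubes and from 0.06134 to 0.3065 FPKM in fibroblasts, and H6pd lies higher in fibroblasts.

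The promoters of Hsd11b1 and Nr3c2 are shown because this pair had the largest log2 changes of the 9 in myotubes under aldosterone. RefSeq sequences of the build GRCm38.p6 cover 250 bases before and 50 after an annotated start. Of the 9 genes 7 matched, with 8 promoters. Capitals mark CCAAT, the box bound by the factor NF-Y, and its reverse complement ATTGG, and no marked box overlaps another.
Hsd11b1, chr1:193242311-193242610, minus strand: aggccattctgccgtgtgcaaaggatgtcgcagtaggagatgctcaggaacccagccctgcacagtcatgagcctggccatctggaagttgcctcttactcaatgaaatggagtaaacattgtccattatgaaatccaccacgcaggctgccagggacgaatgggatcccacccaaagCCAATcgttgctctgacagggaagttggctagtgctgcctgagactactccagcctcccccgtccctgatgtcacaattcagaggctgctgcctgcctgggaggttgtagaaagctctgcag
Nr3c2, chr8:76902080-76902379, plus strand: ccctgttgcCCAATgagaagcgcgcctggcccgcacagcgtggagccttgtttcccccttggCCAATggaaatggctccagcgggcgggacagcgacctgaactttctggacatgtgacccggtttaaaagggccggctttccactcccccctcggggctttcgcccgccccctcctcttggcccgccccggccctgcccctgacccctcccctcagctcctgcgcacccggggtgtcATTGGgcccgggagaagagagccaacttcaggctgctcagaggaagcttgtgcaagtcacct
Hsd11b1 has 1 box, with its first base at -72 from the start, and Nr3c2 has 3, at -241, -188 and -12. A box of this kind is in 37.4% of all 32851 promoters of the table. The receptor half-site AGAACA, searched on both strands, is in neither promoter, in those of 3 of the 7 matched genes and in 19.0% of all. The full palindrome of the receptors, GNACA followed after 3 bases by TGTNC, is in 0 of the 8 promoters and in 0.475% of all. These letters describe a window near the start and say nothing of a factor's binding.

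Myotubes and fibroblasts differed in most of the 9 genes, in a comparison in which most genes of the table also differed. The vehicle groups were compared by the quasi-likelihood test of edgeR, p-values were adjusted by Benjamini-Hochberg over every gene kept, and a gene was called at an adjusted p under 0.05. In mdx cells 6 of the 9 were called, 4 higher and 2 lower in myotubes, beside 70.5% of all genes tested. In C57 cells 7 of the 9 were called, 5 higher and 2 lower in myotubes, beside 74.7% of all genes tested. The members' share lies near that background in both genotypes. The median log2 difference over the 9 was 0.302 in mdx and 0.301 in C57, and over all genes -0.017 in mdx and -0.028 in C57.

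The receptors differed in opposite directions. Nr3c1 averaged 82.56 ± 9.97 CPM in mdx vehicle myotubes and 127.2 ± 3.5 CPM in mdx vehicle fibroblasts (SD, n = 3 each), a log2 difference of -0.63 ± 0.13 (SE, edgeR adjusted p = 0.000245). In C57 it averaged 83.71 ± 6.24 CPM in vehicle myotubes and 128.5 ± 11.7 CPM in vehicle fibroblasts, a log2 difference of -0.62 ± 0.13 (SE, edgeR adjusted p = 0.000234). No myotube library of these groups reached the lowest fibroblast library. Nr3c2 was 2.02-fold higher in C57 myotubes than in C57 fibroblasts, at 4.986 ± 1.14 against 2.459 ± 0.145 CPM (SD, n = 3 each; log2 1.01 ± 0.27 SE, edgeR adjusted p = 0.00233). In mdx it averaged 4.346 ± 0.928 CPM in myotubes and 2.754 ± 1.11 CPM in fibroblasts, and the log2 difference of 0.62 ± 0.28 (SE) was not called (edgeR adjusted p = 0.0524). The call in mdx was made under several other settings, given in the closing section. The difference between genotypes in this contrast was tested and was not called for Nr3c2 (-0.39 ± 0.39 SE, edgeR adjusted p = 0.76).

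Among the enzymes, Hsd11b1 encodes 11β-hydroxysteroid dehydrogenase type 1, which regenerates active glucocorticoid from its inactive keto form. H6pd encodes the enzyme of the endoplasmic reticulum that supplies it with NADPH. Hsd11b1 was 6.71-fold higher in mdx myotubes, at 7.226 ± 1.68 CPM against 1.041 ± 0.31 CPM in mdx fibroblasts (log2 2.75 ± 0.35 SE, edgeR adjusted p = 4.81e-07), and 17.53-fold higher in C57 myotubes, at 8.137 ± 1.32 CPM against 0.4537 ± 0.163 CPM in C57 fibroblasts (log2 4.13 ± 0.37 SE, edgeR adjusted p = 2.83e-09). The fibroblast values rest on 8 to 62 counts per library. The fold in C57 was not called different from that in mdx (difference -1.39 ± 0.51 SE, edgeR adjusted p = 0.262). H6pd ran the other way: it was 2.54-fold lower in mdx myotubes, at 53.25 ± 6.17 CPM against 134.8 ± 1.92 CPM in mdx fibroblasts, and 2.6-fold lower in C57 myotubes, at 51.9 ± 2.57 CPM against 135 ± 11.4 CPM in C57 fibroblasts. Its log2 differences were -1.34 ± 0.10 (edgeR adjusted p = 1.75e-10) and -1.38 ± 0.10 (edgeR adjusted p = 8.51e-11). The enzyme gene and the gene of its NADPH source were each higher in a different cell type.

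Hsd11b2 encodes the type 2 enzyme, which inactivates glucocorticoids and so shields the mineralocorticoid receptor from them in aldosterone target tissues. It is no member of the list, and was low, at 0.04020 to 0.5461 FPKM in myotubes (65 counts in all 12 libraries) and 0.4797 to 1.203 FPKM in fibroblasts (530 counts). In the 12 myotube libraries its mean was 0.1684 FPKM, beside 2.711 FPKM for Hsd11b1. In the 12 fibroblast libraries the order was the other way round, at 0.8039 FPKM for Hsd11b2 and 0.1712 FPKM for Hsd11b1.

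The chaperone genes were moderately higher in myotubes. Fkbp4 encodes FKBP52, an immunophilin that aids hormone binding by steroid receptors, and Ptges3 encodes p23, which stabilises the HSP90 complex. Fkbp4 exceeded fibroblasts by 0.30 ± 0.10 on the log2 scale in mdx (SE, edgeR adjusted p = 0.00774) and by 0.32 ± 0.10 in C57 (edgeR adjusted p = 0.00436). Ptges3 exceeded them by 0.31 ± 0.10 in mdx (edgeR adjusted p = 0.0104) and by 0.30 ± 0.10 in C57 (edgeR adjusted p = 0.0127). The Ptges3 call was lost when mdx vehicle myotube replicate 1 was left out (0.20, adjusted p = 0.102), when C57 vehicle myotube replicate 2 was left out (0.24, adjusted p = 0.0669) and when C57 vehicle fibroblast replicate 2 was left out (0.22, adjusted p = 0.0815). The Fkbp4 call in mdx was lost without mdx vehicle myotube replicate 1 (0.23, adjusted p = 0.0549).

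The coregulators split. Ncoa2 encodes a p160 coactivator and was higher in myotubes, by 0.39 ± 0.09 in mdx (SE, edgeR adjusted p = 0.000718) and by 0.54 ± 0.09 in C57 (edgeR adjusted p = 1.47e-05). Its paralogue Ncoa1, also a p160 coactivator, had log2 differences of 0.21 ± 0.12 in mdx (edgeR adjusted p = 0.121) and 0.24 ± 0.11 in C57 (edgeR adjusted p = 0.0613), and neither was called. Ncor1 encodes a corepressor that recruits histone deacetylase. Its differences of 0.05 ± 0.09 in mdx and 0.04 ± 0.09 in C57 had 95% intervals of -0.13 to 0.22 and -0.13 to 0.21, which bound the difference in its counts that these libraries allow. Ncor1 (114516 counts) overlaps Ttc19 (19565 counts) and Pigl (3592 counts) on the opposite strand, and the libraries do not mark strand. Reads of these genes may therefore not be fully told apart, and their part in the Ncor1 values was not tested. Of the 9 genes none was called for the difference between genotypes in this contrast, beside 0.23% of all genes. There 1 gene, Hsd11b1, had an unadjusted p under 0.05, and DESeq2 called 0.

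With culture as a term, Hsd11b1 rose and Nr3c2 fell in myotubes under aldosterone, as the mean of both genotypes, in a contrast in which macrophage and leukocyte markers also rose (6 of 10 called). In mdx myotubes Hsd11b1 had 7.252, 8.869 and 20.87 CPM under aldosterone (cultures 1, 2 and 3), against 6.303, 6.21 and 9.166 CPM under vehicle. In C57 myotubes it had 15.05, 22.43 and 17.23 CPM under aldosterone, against 8.259, 9.396 and 6.757 CPM under vehicle. Aldosterone libraries were above their same-numbered vehicle library in all 6 cultures, and in C57 the groups did not overlap, while in mdx they did. These are ratios of 1.15 to 2.55 within a culture. Nr3c2 had 2.352, 3.085 and 4.162 CPM under aldosterone in mdx, against 3.355, 4.489 and 5.194 CPM under vehicle. In C57 it had 3.470, 3.382 and 3.392 CPM under aldosterone, against 6.113, 3.833 and 5.013 CPM under vehicle. The aldosterone library was below its vehicle partner in all 6 cultures, at ratios of 0.57 to 0.88. The C57 groups did not overlap and the mdx groups did. Of the mdx cultures, culture 3 was highest in both genes under either treatment. The 8 skeletal muscle markers summed there to 36260 CPM under aldosterone and 36740 CPM under vehicle, against 23780 to 29280 CPM in mdx cultures 1 and 2. The part of muscle content in these values was not tested.

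**Figure D2:**
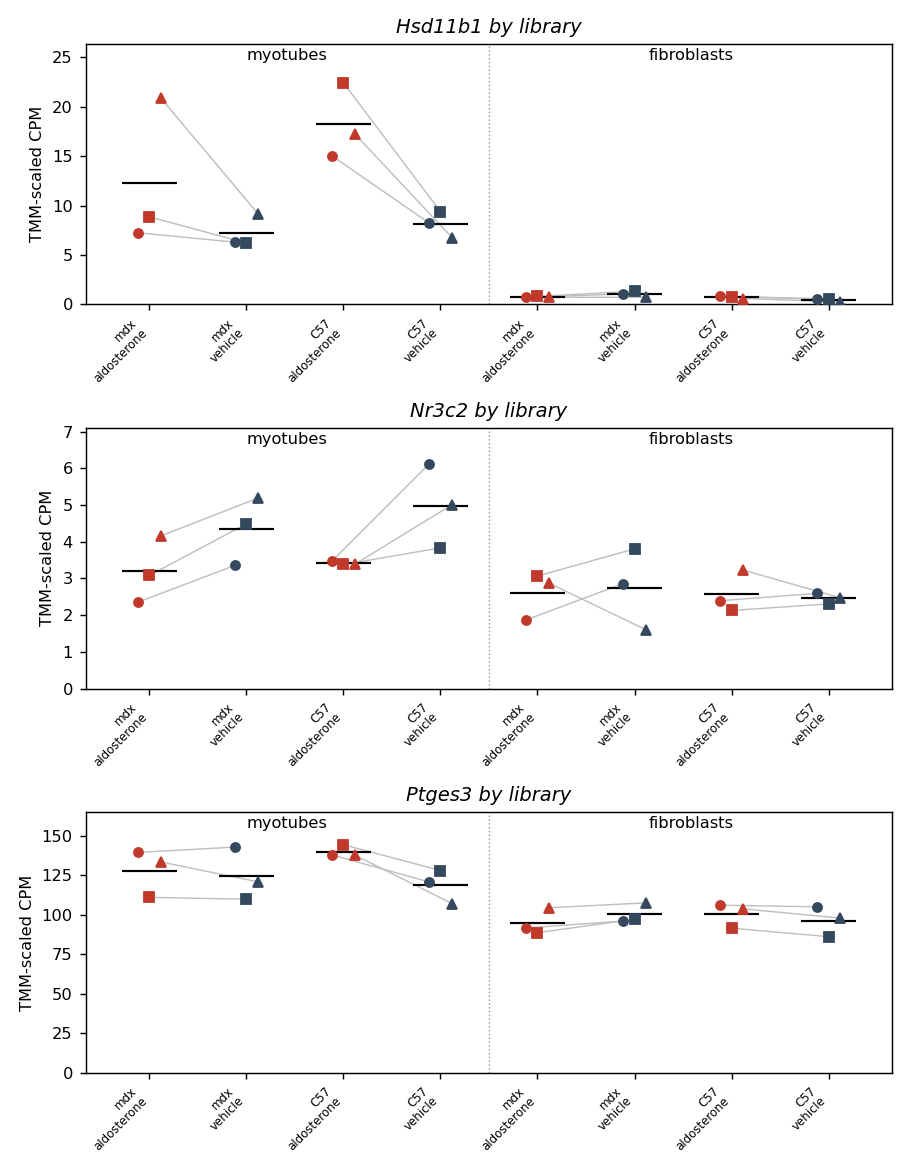
TMM-scaled CPM of Hsd11b1, Nr3c2 and Ptges3 in each of the 24 libraries, with aldosterone in red and vehicle in dark blue, and replicates 1, 2 and 3 as circles, squares and triangles. Grey lines join libraries of the same number, bars are group means, and Hsd11b1 stands above its vehicle partner in all 6 myotube cultures while Nr3c2 stands below it in all 6.

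In the edgeR fit of all 12 myotube libraries, these differences were called only with the culture as a term. Same-numbered aldosterone and vehicle myotube libraries deviated together from their group means, at correlations of 0.359 to 0.704, so the fit with culture as a block is given beside the fit without it. In C57, aldosterone library 3 also correlated with vehicle library 2 (0.35, against 0.359 with its own number). Aldosterone library 2 correlated with vehicle library 3 at 0.256, so C57 cultures 2 and 3 were weakly told apart. The remaining differently numbered pairs ran from -0.607 to -0.161. Without the block, edgeR called 0 of the 9 genes in mdx myotubes, beside 0.0% of all genes (members at an unadjusted p under 0.05: 0; DESeq2: 0), and 0 of 9 in C57 myotubes, beside 0.0127% (3 at an unadjusted p under 0.05; DESeq2 called 0). As the mean of both genotypes it called 0 of 9, beside 0.216% (2 at an unadjusted p under 0.05, and 1 called by DESeq2). With the block it called 1 of 9 in mdx, beside 2.33%, 2 of 9 in C57, both higher under aldosterone, beside 4.98%, and 3 of 9 as the mean of both genotypes, 2 higher and 1 lower, beside 8.96%. The median log2 change of the 9 with the block was 0.03 as the mean of both genotypes, against 0.009 over all genes. The estimates were nearly equal in both fits and the errors smaller with the block. For the mean of both genotypes Hsd11b1 was 0.91 ± 0.11 (SE) with the block and 0.97 ± 0.25 without, and Nr3c2 was -0.48 ± 0.13 with it and -0.48 ± 0.18 without.

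Markers of other cell types also passed in these blocked contrasts. Of the 10 macrophage and leukocyte markers, 6 were called higher under aldosterone as the mean of both genotypes (median log2 change 0.75) and 5 in mdx (median 1.74), while in C57 1 was called lower (median -0.30). Their change was called higher in mdx than in C57 for 3 of the 10 (median difference 2.0). Their summed level was 3.985 to 205.9 CPM under aldosterone and 3.795 to 43.17 CPM under vehicle in mdx, and 12.06 to 395.1 CPM under aldosterone and 13.35 to 502.3 CPM under vehicle in C57, with no marker at 0 in every library of a group. As the mean of both genotypes 2 of the 8 skeletal muscle markers and 2 of the 8 fibroblast markers were called lower (medians 0.03 and -0.17). In the same contrast 1 of 2 tested adipocyte markers was called higher (median 0.52), as 1 was in mdx (median 0.69). Of 4 myoblast and satellite cell markers 1 was called higher, and of 5 smooth muscle and pericyte markers 1 lower (medians -0.07 and -0.08). Of 5 tested endothelial markers 0 were called. Without the block 0 markers of these lists were called in these contrasts. Without mdx culture 2, where the macrophage sum under aldosterone was highest in mdx, the mean change of Hsd11b1 was 0.94 (edgeR adjusted p = 0.000303), that of Nr3c2 -0.46 (adjusted p = 0.0742) and that of Ptges3 0.15 (adjusted p = 0.0937). The part of these cells in the calls was not tested further.

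Hsd11b1 was called with the block in mdx (log2 0.66 ± 0.16 SE, edgeR adjusted p = 0.0343), in C57 (1.16 ± 0.14, edgeR adjusted p = 6.79e-05) and as their mean (0.91 ± 0.11, a 1.88-fold change, edgeR adjusted p = 1.8e-05). Without the block the mean was not called (edgeR adjusted p = 0.233), and DESeq2 called it (log2 0.97, adjusted p = 0.00929). Leaving out each of the 6 cultures in turn gave 0.76 to 1.03 for the mean, with edgeR adjusted p between 2.41e-06 and 0.000561. The mdx call was lost without mdx culture 2 (0.72, adjusted p = 0.177) and without mdx culture 3 (0.35, adjusted p = 0.587). Without C57 cultures 2 and 3, which have high macrophage markers, the mean was 0.77 (adjusted p = 0.00267), and the C57 change, then from 1 culture, was 0.88 (adjusted p = 0.0682). The change was not called different between genotypes (mdx minus C57 -0.50 ± 0.22 SE with the block, edgeR adjusted p = 0.929). For this contrast edgeR called 0 of the 9, beside 0.0444% of all genes with the block and 0.0% without it, where 0 of 9 had an unadjusted p under 0.05 and DESeq2 called 0.

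The count for Hsd11b1 carries a limit. The libraries do not mark strand, and Hsd11b1 lies within the span of Lamb3 on the opposite strand, so reads of the pair cannot be fully told apart. Lamb3, a laminin gene, averaged 6.297 CPM in myotubes and 1.252 CPM in fibroblasts, and its own aldosterone change in myotubes with the block was 0.24 ± 0.12 (SE, edgeR adjusted p = 0.272). Its part in the Hsd11b1 result was not tested.

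Nr3c2 fell by 0.48 on the log2 scale as the mean of both genotypes with the block (-0.48 ± 0.13 SE, a ratio of 0.72, edgeR adjusted p = 0.0189), and was not called in mdx alone (-0.45 ± 0.19, adjusted p = 0.298) or in C57 alone (-0.51 ± 0.17, adjusted p = 0.0979), where it was called without culture 2 (-0.70, adjusted p = 0.0405). The call for the mean was lost when any of 5 of the 6 cultures was left out: C57 culture 1 (-0.40, adjusted p = 0.0913), C57 culture 3 (-0.47, adjusted p = 0.0708), mdx culture 1 (-0.47, adjusted p = 0.0567), mdx culture 2 (-0.46, adjusted p = 0.0742) or mdx culture 3 (-0.52, adjusted p = 0.0546). The direction was the same in each. Without C57 cultures 2 and 3 together it was -0.63 (adjusted p = 0.0205). The gene had 36 to 131 counts per myotube library.

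Ptges3 also passed with the block. In mdx it had 139.6, 111.1 and 133.5 CPM under aldosterone, against 142.9, 109.9 and 120.9 CPM under vehicle. In C57 it had 138.0, 144.4 and 137.8 CPM under aldosterone, against 120.9, 128.1 and 107.1 CPM under vehicle. The groups overlapped in mdx and did not in C57. The C57 change was 0.25 ± 0.06 (SE, edgeR adjusted p = 0.0117) and the mean of both genotypes 0.14 ± 0.04 (edgeR adjusted p = 0.031), and in mdx the change was 0.04 ± 0.06 (edgeR adjusted p = 0.867). The difference between genotypes was not called (-0.21 ± 0.08, adjusted p = 0.89). The mean lost its call without C57 culture 3 (0.12, adjusted p = 0.151), mdx culture 2 (0.15, adjusted p = 0.0937) or mdx culture 3 (0.12, adjusted p = 0.194), and the C57 change without C57 culture 3 (0.20, adjusted p = 0.163). Without C57 cultures 2 and 3 together the mean was 0.12 (adjusted p = 0.183). The processed pseudogene Ptges3-ps holds 8152 counts in all myotube libraries and 9649 in all fibroblast libraries, beside 30505 and 35867 for Ptges3, so reads may be split between them and the value is uncertain. Ptges3-ps itself changed by 0.15 ± 0.06 (SE, edgeR adjusted p = 0.107) as the mean of both genotypes with the block.

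The remaining 6 genes were not called in myotubes under aldosterone. Nr3c1 had 68.67, 115.2 and 89.29 CPM under aldosterone in mdx, against 73.03, 92.93 and 81.73 CPM under vehicle, and 75.7, 82.96 and 84.08 CPM under aldosterone in C57, against 76.8, 85.41 and 88.93 CPM under vehicle. Its mean change with the block was 0.04 ± 0.05 (SE, 95% interval -0.06 to 0.13). The highest values of Nr3c1 in each mdx treatment were those of mdx culture 2, where the 8 fibroblast markers also summed highest, to 3318 CPM under aldosterone and 3265 CPM under vehicle, against 883.4 to 1780 CPM in the other mdx myotube libraries. Fibroblasts hold more Nr3c1 than myotubes, and the part of these cells in that culture's value was not tested. Fkbp4 had a change of 0.14 ± 0.05 (edgeR adjusted p = 0.0877). H6pd, Ncoa1, Ncoa2 and Ncor1 had changes between -0.05 and 0.03. Their 95% intervals lay within -0.13 and 0.13.

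**Figure D3:**
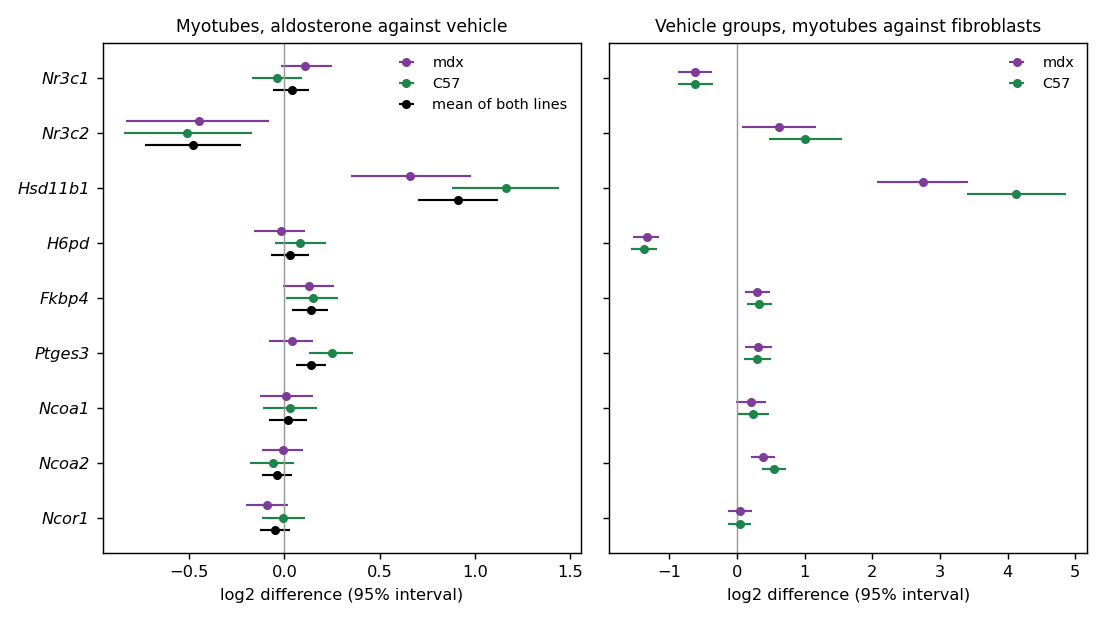
Log2 differences with 95% intervals for the 9 genes; the left panel has aldosterone against vehicle in myotubes with culture as a block, for mdx, C57 and the mean of both, with Hsd11b1 and Nr3c2 farthest from 0. The right panel has vehicle myotubes against vehicle fibroblasts in mdx and C57, where Hsd11b1 is 2.75 and 4.13 and H6pd is -1.34 and -1.38.

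Both receptors bind glucocorticoids, and their transcript ratio was taken from the FPKM values of each library. The ratio of Nr3c1 to Nr3c2 was 24.6, 31.5 and 18.1 in mdx myotubes under aldosterone, against 18.3, 17.4 and 13.3 under vehicle. In C57 myotubes it was 18.4, 20.7 and 20.9 under aldosterone, against 10.6, 18.8 and 14.9 under vehicle. It was higher under aldosterone in each of the 6 cultures, by 0.52 on the log2 scale on average (1.44-fold, exact permutation test within genotype, two-sided p = 0.02, smallest possible p 0.005). Sign flips over the 6 cultures gave an exact two-sided p = 0.0312, which is the smallest p that 6 cultures can give. Leaving out each library in turn gave differences of 0.41 to 0.63.

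In fibroblasts the ratio was 27.4 to 66.9 in all 12 libraries. Medium from aldosterone-treated myotubes was accompanied by ratios of 66, 33.2 and 43.8 in mdx fibroblasts, against 38.6, 27.4 and 66.9 with vehicle medium, and by ratios of 45.9, 57.4 and 35.9 in C57 fibroblasts, against 37.7, 50.9 and 44.3 with vehicle medium. The groups overlapped in both genotypes, and the difference was 0.10 on the log2 scale (exact permutation test, two-sided p = 0.685). Over all 24 libraries, myotubes were lower than fibroblasts by 1.27 on the log2 scale (-1.27, a ratio of 0.414). The exact permutation test gave a two-sided p = 0.00216, the smallest it can give. It compared 6 means per cell type, each over the same-numbered aldosterone and vehicle libraries of 1 genotype. The genotypes were compared on the same means, over both treatments. On the log2 scale mdx minus C57 was 0.22 in myotubes (exact permutation p = 0.4) and -0.04 in fibroblasts (exact permutation p = 0.9). With 3 means against 3, the exact permutation test cannot go below an exact permutation p = 0.1. The ratios are made of the same Nr3c1 and Nr3c2 values as the differences above.

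**Figure D4:**
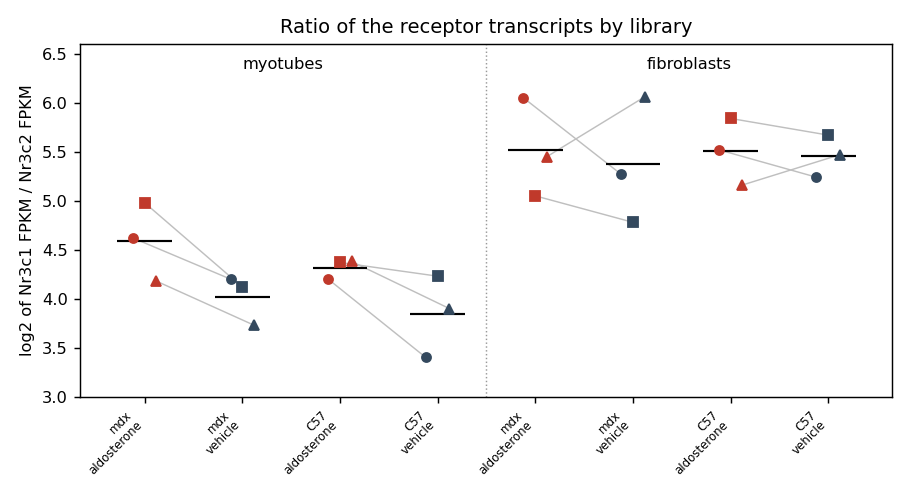
Log2 ratio of Nr3c1 FPKM to Nr3c2 FPKM in each of the 24 libraries, with aldosterone in red and vehicle in dark blue, replicates 1, 2 and 3 as circles, squares and triangles, and group means as bars. Myotube ratios run from 10.6 to 31.5 and lie above the vehicle partner under aldosterone in each of 6 cultures, while fibroblast ratios run from 27.4 to 66.9.

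Other genes of the pathway were called at a share near that of all genes. Of 95 genes in 7 lists (chaperone partners, coactivators, corepressors, steroid enzymes, NADPH supply, steroid binding and export, other steroid receptors), 94 were in the table and 80 were tested in myotubes. The lists were chosen with earlier results of these data known. With culture as a block, 4 rose and 1 fell under aldosterone as the mean of both genotypes, beside 8.96% of all genes, at a median log2 change of 0.013 over the 80 against 0.009 over all genes. This is the contrast in which 6 of 10 macrophage and leukocyte markers were called higher. Those named here had the smallest adjusted p. Fkbp5, an immunophilin that lowers hormone binding by the receptors and is a textbook corticosteroid target, rose by 0.46 ± 0.06 (SE, edgeR adjusted p = 3.33e-05), and without the block it was the single pathway gene called (0.46 ± 0.07, edgeR adjusted p = 0.02). It averaged 23.78 ± 1.49 CPM in mdx aldosterone myotubes and 18.72 ± 2.29 CPM in mdx vehicle myotubes (SD, n = 3 each), and 25.46 ± 0.513 CPM in C57 aldosterone myotubes and 17.18 ± 0.892 CPM in C57 vehicle myotubes. Abcb1b, a drug and steroid exporter gene, rose by 0.46 ± 0.07 (edgeR adjusted p = 7.28e-05), and Hsp90aa1, which encodes HSP90 alpha, by 0.23 ± 0.04 (edgeR adjusted p = 0.00066). Akr1c18, which encodes a progesterone-inactivating reductase, fell by 1.58 on the log2 scale (-1.58 ± 0.28 SE, edgeR adjusted p = 0.00062), with levels of at most 1.721 CPM in any myotube library. In mdx alone Abcb1b rose by 0.41 ± 0.10 and Akr1c18 had a change of -1.69 ± 0.39 (edgeR adjusted p = 0.0199 and 0.0185). In C57 alone Fkbp5, Abcb1b and Hsp90aa1 rose by 0.57, 0.51 and 0.30, and Akr1c18 had a change of -1.47 (edgeR adjusted p of 0.000243, 0.0023, 0.00197 and 0.0372). A further contrast took the direct hormone effect in myotubes minus the conditioned-medium effect in fibroblasts. Fkbp5 was the 1 of 82 tested pathway genes called there (0.62 ± 0.09, edgeR adjusted p = 0.0119), beside 0.0728% of all genes. Cell type and kind of exposure cannot be told apart in that contrast.

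Between the cell types, 32 of 82 tested pathway genes were higher and 33 lower in mdx myotubes, and 29 higher and 41 lower in C57 myotubes. Of all 17864 genes tested, 6335 were higher and 6262 lower in mdx (70.5% called), and 6556 higher and 6781 lower in C57 (74.7% called). Bag1, a regulator of HSP70 chaperones, was 2.21 ± 0.10 (log2, SE) higher in mdx and 2.34 ± 0.10 higher in C57 (edgeR adjusted p = 4.97e-14 and 1.62e-14). Pgd, which makes NADPH in the cytosol, was lower by 1.75 in mdx and by 2.07 in C57 on the log2 scale (-1.75 ± 0.12 and -2.07 ± 0.12). Ppargc1b, a coactivator of oxidative metabolism, was higher by 4.61 ± 0.29 in mdx and 4.0 ± 0.27 in C57. Prmt1, which encodes an arginine methyltransferase and coactivator, was higher in mdx myotubes (0.76 ± 0.06, edgeR adjusted p = 1.67e-10). In C57 it also averaged higher, at 232.3 CPM in vehicle myotubes against 129.3 CPM in vehicle fibroblasts. Abcc1, an exporter gene, was lower in C57 myotubes (-1.97 ± 0.11, edgeR adjusted p = 1.47e-12). In mdx it also averaged lower, at 136.5 CPM in vehicle myotubes against 368.4 CPM in vehicle fibroblasts. Each is tested here only for the genotype where it was among the 4 smallest adjusted p. Of the chaperone partners 12 of 18 were higher and 3 lower in mdx, and 11 higher and 3 lower in C57, beside the counts over all genes just given, at medians of 0.277 and 0.269 against -0.017 and -0.028 over all genes.

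Among the steroid enzymes, several adrenal and gonadal ones were near 0. Cyp11b2, the aldosterone synthase gene, had 0 counts in all 24 libraries, and Cyp21a1, Cyp17a1 and Cyp11b1 were under 0.02 FPKM in both cell types. Not every gene of that list was so low: Star averaged 0.822 FPKM in myotubes and 0.849 FPKM in fibroblasts.

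In fibroblasts, medium of aldosterone-treated myotubes was not followed by a called change in any of the 9 genes. edgeR called 0 of 9 in mdx, beside 0.0% of all genes (0 at an unadjusted p under 0.05, DESeq2 called 0), 0 of 9 in C57, beside 0.0% (0 and 0), and 0 of 9 as the mean of both, beside 0.012% (1 at an unadjusted p under 0.05, and DESeq2 called 0). The gene with the smallest p was H6pd. It had 161.4, 138.4 and 151.9 CPM with aldosterone medium in mdx, against 132.6, 135.9 and 136.0 CPM with vehicle medium, and 153.6, 144.1 and 148.4 CPM with aldosterone medium in C57, against 121.9, 140.5 and 142.5 CPM with vehicle medium. The groups did not overlap in either genotype. The mean change was 0.14 ± 0.05 (SE, edgeR adjusted p = 0.23), and it was called (0.17, adjusted p = 0.0379) when mdx aldosterone-medium replicate 2 was left out. In that fit 950 genes were called in place of 2.

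Hsd11b1 in fibroblasts was near the floor of detection. It had 0.7062, 0.801 and 0.718 CPM with aldosterone medium in mdx, against 1.059, 1.341 and 0.7228 CPM with vehicle medium. In C57 it had 0.8427, 0.7743 and 0.5905 CPM with aldosterone medium, against 0.5664, 0.5274 and 0.2673 CPM with vehicle medium. The same-numbered libraries pointed down in mdx and up in C57, and the difference of the changes was not called (-1.18 ± 0.48 SE, edgeR adjusted p = 1.0). Of the 9 genes 0 were called for it, beside 0.0% of all genes (1 at an unadjusted p under 0.05, DESeq2 called 0). Nr3c2 changed by -0.01 ± 0.19 (95% interval -0.40 to 0.37) and Nr3c1 by 0.10 ± 0.06 as the mean of both genotypes. The other fibroblast changes were between -0.04 and 0.06 in Fkbp4, Ptges3, Ncoa1, Ncoa2 and Ncor1. The hormone effect in myotubes minus the medium effect in fibroblasts was 0.89 ± 0.36 for Hsd11b1 (edgeR adjusted p = 0.57) and -0.47 ± 0.28 for Nr3c2 (edgeR adjusted p = 0.755). None of the 9 was called there, beside 0.0728% of all genes (1 at an unadjusted p under 0.05, DESeq2 called 0). Hormone on myotubes and medium on fibroblasts were thus not shown to differ in effect, and cell type and kind of exposure cannot be told apart there.

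None of the 9 genes was called between the genotypes. In myotubes 0 of 9 were called between mdx and C57 under aldosterone, beside 0.311% of all genes, and 0 of 9 under vehicle, beside 0.362% (0 and 0 at an unadjusted p under 0.05, and 0 and 0 by DESeq2). There fibroblast markers had median log2 differences of 1.79 (aldosterone) and 1.5 (vehicle), and macrophage and leukocyte markers -1.59 and -4.2, with 0 called. With the replicate number as a block, 4 and 3 of 8 fibroblast markers were called higher in mdx. Of 10 macrophage and leukocyte markers 1 and 8 were called lower. The part of these cells in the genotype values was not tested. In fibroblasts 0 of 9 were called with aldosterone medium, beside 1.23%, and 0 of 9 with vehicle medium, beside 1.1% (0 and 1 at an unadjusted p under 0.05, and 0 and 0 by DESeq2). The 1 was Hsd11b1, higher in mdx vehicle-medium fibroblasts at 1.041 ± 0.31 CPM, against 0.4537 ± 0.163 CPM in C57 (log2 1.20 ± 0.34 SE, edgeR adjusted p = 0.117). Of 81 tested pathway genes in fibroblasts, Trim24, a coactivator, was lower in mdx with vehicle medium (-0.28 ± 0.06, edgeR adjusted p = 0.0385). With aldosterone medium Por, which passes electrons to steroid-converting P450 enzymes, was higher in mdx (0.37 ± 0.08, edgeR adjusted p = 0.0385), and Srd5a1, a steroid 5-alpha-reductase gene, was lower (-0.88 ± 0.17, edgeR adjusted p = 0.0222). The highest Hsd11b1 level in the 8 groups was that of C57 aldosterone myotubes and the next that of mdx aldosterone myotubes, and these groups overlapped. In that order each Hsd11b1 group overlapped the next among the 4 myotube groups, and no myotube group overlapped a fibroblast group. For Nr3c2 every group overlapped the next, with C57 vehicle myotubes highest and C57 vehicle fibroblasts lowest. For Nr3c1 the 4 fibroblast groups lay above the 4 myotube groups without overlap.

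To show what moved alongside these genes, genes that code for protein and averaged 5 CPM or more were ranked by Pearson's r of log2 CPM over the 12 libraries of a cell type. Libraries share genotype, treatment and culture, so r is a description. The search covered 10411 or 10412 genes in myotubes and 10467 or 10468 in fibroblasts, so picking the top values itself raises r. In myotubes Hsd11b1 was most like Mylk2 (r = 0.965), Fhl1 (0.936) and Cdh13 (0.928). Mylk2 encodes the skeletal muscle myosin light chain kinase and Fhl1 a LIM domain protein of muscle. Nr3c2 was most like Igfbp5 (0.955), Pgm5 (0.948) and Myom3 (0.941), where Myom3 encodes a protein of the sarcomere's M-band. Nr3c1 was most like Nedd9 (0.938), Unk (0.923) and Prrx1 (0.916), the last a mesenchymal transcription factor gene. In fibroblasts Nr3c1 was most like Lama4 (0.943), Rap2a (0.942) and Cdkn1c (0.925), and Nr3c2 was most like Ints13 (0.896), Trmu (0.845) and Ccdc84 (0.827). Hsd11b1 was not ranked in fibroblasts, where its mean was under 1 CPM.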

How the data were processed

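Whole-number counts of reads per gene were deposited by the authors for 24 libraries. The submitters' processing notes name featureCounts 1.5.0-p3 and the build mm39. The aligner was not given in the sources used here. Per the labels' protocols, the kit does not mark strand. FPKM values, which the authors deposited beside the counts, matched counts divided by gene length and by the library's total, up to 1 factor in each library, and served only for levels between genes and the receptor ratio. The table held 0 columns without a sample.

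Counts were fitted in R 4.3.3 with edgeR 4.0.16 (default low-count filter, TMM scaling, robust quasi-likelihood test, Benjamini-Hochberg adjustment over all genes kept, threshold 0.05), over the 12 libraries of a cell type, or all 24 for cell type comparisons. SE is the log2 change over the square root of F, an approximation, and 95% intervals come from it. Intervals and counts cover these libraries, whose numbered biological replicates are the n. DESeq2 1.42.0 was an alternative, as were its size factors, no filter, only the groups compared, the replicate block and leaving out each library or culture. The script was tested on simulated counts.

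Pairing was judged from the counts, as the correlation of deviations from group means: same-numbered libraries correlated at 0.359 to 0.704 in the myotube hormone comparisons, where the block is given. In the fibroblast medium comparisons the values were 0.106 to 0.299 in mdx and -0.018 to 0.121 in C57. Between genotypes they were -0.164 to 0.331 in myotubes and -0.182 to 0.123 in fibroblasts, and between cell types 0.008 to 0.156. The members, gene lists and tests were chosen with earlier results of these data known. Named genes are the 9, up to 4 called pathway genes per comparison by smallest adjusted p, the 3 genes most like each receptor and Hsd11b1, and Dmd. Hsd11b2, Lamb3, Ptges3-ps, Cyp11b2, Cyp21a1, Cyp17a1, Cyp11b1 and Star were named after their values were seen. Protein sequences were not used here.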

Additional observations from a re-analysis of the deposited data

Results flagged for a closer look

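In fibroblasts, the same-numbered libraries of the 2 genotypes moved in opposite directions with aldosterone medium for 2 of the 9 genes. For Hsd11b1 the medium's effect in mdx minus that in C57 was -1.18 on the log2 scale: aldosterone medium was lower than vehicle medium in 3 of 3 mdx pairs and higher in 3 of 3 C57 pairs. For Ptges3 the same difference was -0.15, again lower in 3 of 3 mdx pairs and higher in 3 of 3 C57 pairs. Both differences were tested, and edgeR called neither (adjusted p = 1.0 for each). Fibroblast libraries of C57 are not shown to be paired by their numbers, and Hsd11b1 there rests on 8 to 62 counts per library.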

How the results depend on the processing

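Under the alternatives, 1824 of 2034 values of the 9 genes kept their direction and side of the threshold, 18 lost a call, 17 gained one and 175 changed sign. All 175 were past the threshold in neither fit, and the cause was not tested. The H6pd, Nr3c1 and Ncoa2 calls between cell types held under every alternative run. For Nr3c2 in mdx, DESeq2 size factors (0.64, adjusted p = 0.0458), the replicate block (0.64, adjusted p = 0.0333), leaving out myotube replicate 1 (0.79, adjusted p = 0.028) and leaving out fibroblast replicate 2 (0.96, adjusted p = 0.00889) gave a call. Ncoa1 in C57 was called with DESeq2 size factors (0.30, adjusted p = 0.0295), by DESeq2 (0.30, adjusted p = 0.033) and with only the groups compared (0.30, adjusted p = 0.0149). The calls of Nr3c2 and Hsd11b1 between cell types in C57, and of Hsd11b1 in mdx, also held. Low counts limit Nr3c2 in all libraries and Hsd11b1 in fibroblasts.

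The replicate block in the myotube hormone comparisons called 1 of the 9 genes in mdx, 2 in C57 and 3 as the mean of both. DESeq2 called 1 as that mean, and fitting only the groups compared called 1 in C57 (Hsd11b1, 1.15, adjusted p = 0.0329). Every pair of mdx fibroblast libraries also deviated together, at 0.106 to 0.299, and in the other comparisons the numbers were not shown to pair the samples. Outside the myotube hormone comparisons the block added the Nr3c2 call between cell types in mdx and changed no other call of the 9 genes, and it gave -0.003 for H6pd in the effect of aldosterone medium in mdx minus C57 and -0.019 for Nr3c2 between genotypes with aldosterone medium. A setting added after seeing the data, without C57 cultures 2 and 3 and with the block, called 0 of the 9 in C57. It leaves 1 C57 culture, taken to vary like the mdx cultures, and Hsd11b1 there was 0.88 (adjusted p = 0.0682).

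With all libraries kept, the other sign changes lay near 0. Without a filter on low counts, Ncor1 in C57 myotubes under aldosterone gave 0.0, H6pd between genotypes with vehicle medium -0.003, and Nr3c1 in the cell type difference between genotypes 0.003. In that difference DESeq2 size factors gave -0.003 for H6pd, -0.025 for Ptges3 and -0.034 for Ncor1, DESeq2 gave -0.004, -0.023 and -0.033 for the same genes, and only the groups compared gave -0.005 for Ptges3 and -0.016 for Ncor1. With only the groups compared, Nr3c1 between genotypes with aldosterone medium gave -0.001.

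Over all genes, counts moved more. Without a filter, aldosterone in mdx, C57 and their mean called 16, 26 and 84 genes in myotubes, in place of 0, 2 and 34, and 2, 65 and 215 in fibroblasts, in place of 0, 0 and 2. DESeq2 called 19, 59 and 162 in myotubes and 0, 73 and 298 in fibroblasts. The block called 367, 785 and 1412 in myotubes and 0, 0 and 3 in fibroblasts. With only the groups compared, C57 gave 30 genes in myotubes and 5 in fibroblasts. Between genotypes under aldosterone and under vehicle, no filter gave 163 and 156 genes in myotubes, in place of 49 and 57, and 452 and 436 in fibroblasts, in place of 205 and 184. DESeq2 gave 485 and 373 in myotubes and 547 and 474 in fibroblasts, the block 397 and 433 in myotubes, and only the groups compared 23 and 6 in myotubes. The difference between genotypes in the cell type contrast gave 77 without a filter, 280 with DESeq2, 1 with only the groups compared and 159 with the block, in place of 41. The hormone effect in myotubes minus the medium effect in fibroblasts gave 21, 71 and 30 without a filter, with DESeq2 and with the block, in place of 13. The block gave 7 genes in place of 0 for the myotube effect in mdx minus C57.

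Leaving out 1 library, or 1 culture where the block is named, gave these ranges of log2 changes or counts. Nr3c1 gave -0.103 to 0.006, Ncoa1 gave -0.016 to 0.105, Ncoa2 gave -0.137 to 0.009 and Ncor1 gave -0.056 to 0.071 for aldosterone against vehicle in C57 myotubes. 1 to 3 of the 9 genes were called with the culture block for aldosterone against vehicle in C57 myotubes. Nr3c1 gave -0.068 to 0.317, H6pd gave -0.11 to 0.122, Ptges3 gave -0.041 to 0.143 and Ncoa1 gave -0.118 to 0.121 for aldosterone against vehicle in mdx myotubes. Ncoa2 gave -0.076 to 0.068, Ptges3 with the block gave -0.009 to 0.075 and 0 to 1 of the 9 genes were called with the culture block for aldosterone against vehicle in mdx myotubes. Nr3c1 gave -0.058 to 0.135, H6pd gave -0.013 to 0.103, Ncoa1 gave -0.043 to 0.075 and Ncoa2 gave -0.072 to 0.002 for aldosterone against vehicle as the mean of both genotypes in myotubes. 1 to 3 of the 9 genes were called with the culture block for aldosterone against vehicle as the mean of both genotypes in myotubes. Nr3c1 gave -0.022 to 0.363, Nr3c2 gave -0.126 to 0.297, H6pd gave -0.194 to 0.037 and Fkbp4 gave -0.112 to 0.128 for the myotube aldosterone effect in mdx minus C57. Ncoa1 gave -0.151 to 0.094, Ncoa2 gave -0.019 to 0.131, Ncor1 gave -0.196 to 0.001 and Nr3c2 with the block gave -0.103 to 0.253 for the myotube aldosterone effect in mdx minus C57. Nr3c1 gave -0.134 to 0.051, H6pd gave -0.054 to 0.116 and Ptges3 gave -0.052 to 0.132 for mdx against C57 vehicle myotubes. Nr3c1 gave -0.059 to 0.325, Nr3c2 gave -0.342 to 0.073, H6pd gave -0.164 to 0.054 and Fkbp4 gave -0.17 to 0.071 for mdx against C57 aldosterone myotubes. Nr3c2 gave -0.114 to 0.187, Ptges3 gave -0.01 to 0.124, Ncoa1 gave -0.058 to 0.073 and Ncor1 gave -0.02 to 0.009 for aldosterone against vehicle medium in C57 fibroblasts. Nr3c2 gave -0.378 to 0.23, Fkbp4 gave -0.042 to 0.019, Ncoa1 gave -0.015 to 0.13 and Ncoa2 gave -0.015 to 0.075 for aldosterone against vehicle medium in mdx fibroblasts. Ncor1 gave -0.017 to 0.061 for aldosterone against vehicle medium in mdx fibroblasts. Nr3c2 gave -0.15 to 0.154, Hsd11b1 gave -0.043 to 0.204, Ptges3 gave -0.056 to 0.016 and Ncor1 gave -0.012 to 0.027 for aldosterone against vehicle medium as the mean of both genotypes. 0 to 1 of the 9 genes were called for aldosterone against vehicle medium as the mean of both genotypes. Nr3c1 gave -0.055 to 0.111, Nr3c2 gave -0.455 to 0.154, H6pd gave -0.052 to 0.077 and Fkbp4 gave -0.003 to 0.094 for the effect of aldosterone medium in mdx minus C57. Ncoa1 gave -0.032 to 0.125 and Ncor1 gave -0.01 to 0.068 for the effect of aldosterone medium in mdx minus C57. Nr3c1 gave -0.086 to 0.059, Nr3c2 gave -0.148 to 0.462, H6pd gave -0.072 to 0.045 and Fkbp4 gave -0.054 to 0.039 for mdx against C57 fibroblasts with vehicle medium. Ptges3 gave -0.007 to 0.121 and Ncoa2 gave -0.052 to 0.086 for mdx against C57 fibroblasts with vehicle medium. Nr3c1 gave -0.054 to 0.103, Nr3c2 gave -0.132 to 0.197, Hsd11b1 gave -0.132 to 0.133 and H6pd gave -0.047 to 0.073 for mdx against C57 fibroblasts with aldosterone medium. Ncor1 gave -0.04 to 0.085 for myotubes against fibroblasts in C57. Ncor1 gave -0.019 to 0.096 for myotubes against fibroblasts in mdx. Nr3c1 gave -0.102 to 0.075, H6pd gave -0.037 to 0.126, Fkbp4 gave -0.092 to 0.026 and Ptges3 gave -0.1 to 0.094 for the cell type difference in mdx minus C57. Ncoa1 gave -0.14 to 0.035 and Ncor1 gave -0.063 to 0.084 for the cell type difference in mdx minus C57. Nr3c1 gave -0.163 to 0.02 and Ncoa1 gave -0.095 to 0.031 for the hormone effect in myotubes minus the medium effect in fibroblasts. The receptor ratio gave -0.05 to 0.272 for aldosterone against vehicle medium and -0.17 to 0.089 for mdx against C57 in fibroblasts.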
